A study of Mus musculus with 12 samples.

Results

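Transcripts of 10 genes that are widely used as marks of macrophages were followed through every library of a mouse ovary RNA-seq series: the complement chains C1qa, C1qb and C1qc, the surface receptors Csf1r and Adgre1, the signalling adaptors Fcer1g and Tyrobp, the lysosomal genes Lyz2 and Cd68, and Cd52. They were taken by symbol through the Ensembl identifiers of the mouse annotation, and all 10 were listed in both tables, which hold 29101 genes for mural granulosa cells (MGCs) and 33137 for cumulus cells (CCs). The 12 libraries form 4 groups of 3: MGCs of WT mice, MGCs of Sphk1/2 knockout mice, CCs of WT mice and CCs of Sphk1/2 knockout mice. WT mice were C57/BL6, and the knockout mice (Sphk1/2gc-/-) carried Sphk1-/-, Sphk2 fl/fl and Fshr-Cre, so that Sphk1 was to be absent from every cell and Sphk2 deleted where the Fshr promoter drives Cre, which is in granulosa cells. All mice were immature females of 21 to 23 days that received 5 IU of eCG, then 5 IU of hCG 48 h later, and all cells were collected 2 h after hCG. The labels do not say whether libraries of a group came from separate animals, so the p-values below measure the spread between these libraries, which may be technical.

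Macrophages are phagocytes that take up dying cells and debris, and in the ovary they lie in the stroma, in the theca around follicles and in regressing corpora lutea, outside the basement membrane of a healthy follicle. They depend on the receptor CSF1R, whose ligands are CSF1 and IL-34, and many tissue macrophages secrete the chains of C1q, which open the classical complement pathway and tag debris for removal. Neither MGCs nor CCs are myeloid cells. In such bulk RNA, fewer cells of a type and less RNA per cell cannot be told apart.

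The libraries held 16100365 to 19761604 reads on genes, as recovered from the FPKM values (fragments per kilobase of exon, scaled to library size). The 10 genes together took 0.00453% to 0.0233% of the reads of an MGC library and 0.000434% to 0.00938% of those of a CC library. Of the targeted genes, Sphk1 in MGCs stood at 1.68, 1.88 and 0.460 FPKM in WT against 0.432, 0.557 and 0.104 FPKM in the libraries labelled knockout (KO below). In CCs it was 0.0911, 0.0699 and 0.0954 FPKM in WT against 0.0778, 0.456 and 0.557 FPKM in KO, which goes against the label, and Sphk2 overlapped between genotypes in both cell types. These are values per gene that also count exons outside a deleted segment, and KO therefore means a library labelled so. Libraries 3 stood apart in MGCs: 8 of the 10 genes in WT library 3 and 9 of 10 in KO library 3 were under 50% of the mean of libraries 1 and 2 of the same genotype, against 9.75% and 11.4% of all genes whose mean over libraries 1 and 2 reached 0.5 FPKM. In CCs, WT library 3 had 27541 genes above 0 FPKM, against 18788 to 19289 in each of the others. It held all WT CC reads of Adgre1 and the highest WT CC level of Cd68. The cause was not tested.

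The 3 C1q genes lie side by side on the minus strand of chromosome 4 in GRCm38: C1qb at 136880129 to 136886187, C1qc at 136889804 to 136893065 and C1qa at 136895917 to 136898803, with 3616 bases between the first pair and 2851 between the second. Bases upstream of the starts of C1qb and C1qc, which parted the genotypes in CCs, and of Lyz2, which did not, carry a shared short motif and are shown here for that reason (RefSeq, GRCm38.p6, minus strand, 5′ to 3′, without the bases inside the annotated gene). The span is chr4:136886201-136886450 for C1qb, chr4:136893066-136893164 for C1qc and chr10:117282322-117282522 for Lyz2. Capitals mark AGGAAGT on either strand (ACTTCCT as read here), a form of the GGAA core that ETS factors such as the myeloid factor PU.1 bind. This form was chosen over others of the same core after these sequences were seen to hold it, so the number of members with a match is set by that choice.

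C1qb: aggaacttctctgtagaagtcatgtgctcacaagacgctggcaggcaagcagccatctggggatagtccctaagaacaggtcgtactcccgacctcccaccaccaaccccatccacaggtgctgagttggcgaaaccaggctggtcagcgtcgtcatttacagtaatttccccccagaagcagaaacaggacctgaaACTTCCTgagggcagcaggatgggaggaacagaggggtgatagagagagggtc

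C1qc: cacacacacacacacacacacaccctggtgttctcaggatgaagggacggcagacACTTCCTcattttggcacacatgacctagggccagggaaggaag

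Lyz2: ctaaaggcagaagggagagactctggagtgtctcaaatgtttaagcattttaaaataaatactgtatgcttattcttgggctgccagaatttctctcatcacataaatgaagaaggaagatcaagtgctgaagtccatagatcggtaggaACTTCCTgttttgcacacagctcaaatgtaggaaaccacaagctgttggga

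The match ended 47 bases before the RefSeq start of C1qb, 189 before that of C1qc and 94 before that of Lyz2. For C1qc and Lyz2 that start lies inside the annotated gene, so the last 151 and 49 bases before it are not printed. The 250 bases upstream of Cd68 and Fcer1g held none, so 3 of the 5 members listed in the RefSeq table had a match, against 7.69% of 32851 promoters searched over the same length. The other 5 members were C1qa, Csf1r, Adgre1, Tyrobp and Cd52. Spi1, which encodes PU.1, was at 2.18, 2.06 and 1.10 FPKM in WT MGCs against 2.12, 2.91 and 0.349 FPKM in KO MGCs, and at no more than 0.0845 FPKM in any CC library.

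C1qa encodes the A chain of C1q, the recognition unit of the first complement component. In MGCs it stood at 10.5, 9.63 and 3.88 FPKM in WT libraries 1 to 3 and at 25.6, 29.4 and 5.16 FPKM in KO libraries 1 to 3. KO libraries 1 and 2 lay above all 3 WT libraries and KO library 3 lay between the WT libraries, so the genotypes overlapped. In CCs the gene stood at 0.418, 0.107 and 0.219 FPKM in WT (7, 2 and 4 reads) and at 3.73, 0.487 and 3.31 FPKM in KO (73, 10 and 66 reads). All 3 KO CC libraries were above all 3 WT ones, although KO library 2 was closer to WT than to the other two.

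C1qb, the B chain, was at 10.8, 8.82 and 4.25 FPKM in WT MGCs against 26.5, 27.1 and 4.27 FPKM in KO MGCs. Its pattern was that of C1qa, with KO libraries 1 and 2 high and KO library 3 at the level of the lowest WT library. In CCs it was at 1.37, 0.153 and 0.628 FPKM in WT against 8.30, 1.58 and 9.87 FPKM in KO, where the lowest KO library was just above the highest WT library. C1qc, the C chain, was at 5.87, 3.73 and 1.90 FPKM in WT MGCs against 11.6, 12.9 and 2.01 FPKM in KO MGCs. CCs held 0.129, 0.0864 and 0.177 FPKM of it in WT (4, 3 and 6 reads) and 1.62, 0.367 and 2.19 FPKM in KO (59, 14 and 81 reads). The 2 genotypes again overlapped in MGCs and were apart in CCs.

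Csf1r, the receptor through which CSF1 and IL-34 keep macrophages alive, was at 3.54, 2.18 and 1.30 FPKM in WT MGCs against 3.54, 4.25 and 1.01 FPKM in KO MGCs. Its exons overlap those of Hmgxb3, and the kit is not stated to keep the strand, so reads of the pair cannot be told apart where they overlap. Hmgxb3 was at 8.94 to 12.8 FPKM in MGCs, above Csf1r in every library, and at 0.365 to 1.18 FPKM in CCs, and its part in the Csf1r values was not tested. CCs held 0.165, 0 and 0.0932 FPKM of Csf1r in WT and 0.337, 0.0829 and 0.416 FPKM in KO. Adgre1, which encodes the F4/80 antigen of mature mouse macrophages, was at 2.49, 1.67 and 0.969 FPKM in WT MGCs against 4.25, 5.24 and 0.614 FPKM in KO MGCs. In CCs it was listed at 0, 0 and 0.0877 FPKM in WT against 0.278, 0.0312 and 0.353 FPKM in KO, which is 0, 0 and 5 reads against 17, 2 and 22. The genotypes overlapped for both receptors in both cell types, and in CCs both stayed under the 0.5 FPKM group mean needed for a test.

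Fcer1g encodes the common gamma chain of activating Fc receptors, and Tyrobp encodes DAP12, the partner of TREM and other receptors. Fcer1g was at 9.92, 8.46 and 4.48 FPKM in WT MGCs against 9.85, 12.3 and 2.91 FPKM in KO MGCs. In CCs it was at 0.853, 1.02 and 1.04 FPKM in WT against 3.28, 1.79 and 3.22 FPKM in KO, with no overlap. Tyrobp was at 11.5, 9.65 and 6.49 FPKM in WT MGCs against 5.93, 9.47 and 2.24 FPKM in KO MGCs, where 2 of the 3 KO libraries were below every WT library. It was almost missing from CCs, with 1, 0 and 0 reads in WT and 1, 0 and 3 reads in KO, while the same libraries held 12, 16 and 16 and then 54, 31 and 54 reads of Fcer1g.

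Lyz2, the lysozyme of macrophages and neutrophils, was the highest of the 10 in every group. It was at 98.6, 80.1 and 27.3 FPKM in WT MGCs against 42.2, 55.1 and 8.49 FPKM in KO MGCs, and with Tyrobp it was the member with a lower mean in KO. In CCs it ranged widely within each genotype, from 34.7 over 1.01 to 5.84 FPKM in WT and from 35.6 over 4.58 to 47.4 FPKM in KO. Cd68, a lysosomal membrane protein of phagocytes, was at 8.68, 8.34 and 3.59 FPKM in WT MGCs against 8.68, 9.72 and 3.52 FPKM in KO MGCs, nearly library for library the same. It was at 0.692, 0.929 and 2.63 FPKM in WT CCs against 2.53, 1.73 and 3.90 FPKM in KO CCs, with overlap. Cd52, a small surface glycoprotein of many leukocytes, was at 5.87, 5.12 and 3.15 FPKM in WT MGCs against 5.62, 6.81 and 4.10 FPKM in KO MGCs, and at 0.422 to 0.528 FPKM in WT CCs against 0.447 to 1.63 FPKM in KO CCs. Its exons overlap those of Crybg2, which did not exceed 0.0320 FPKM in any library.

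**Figure D1:**
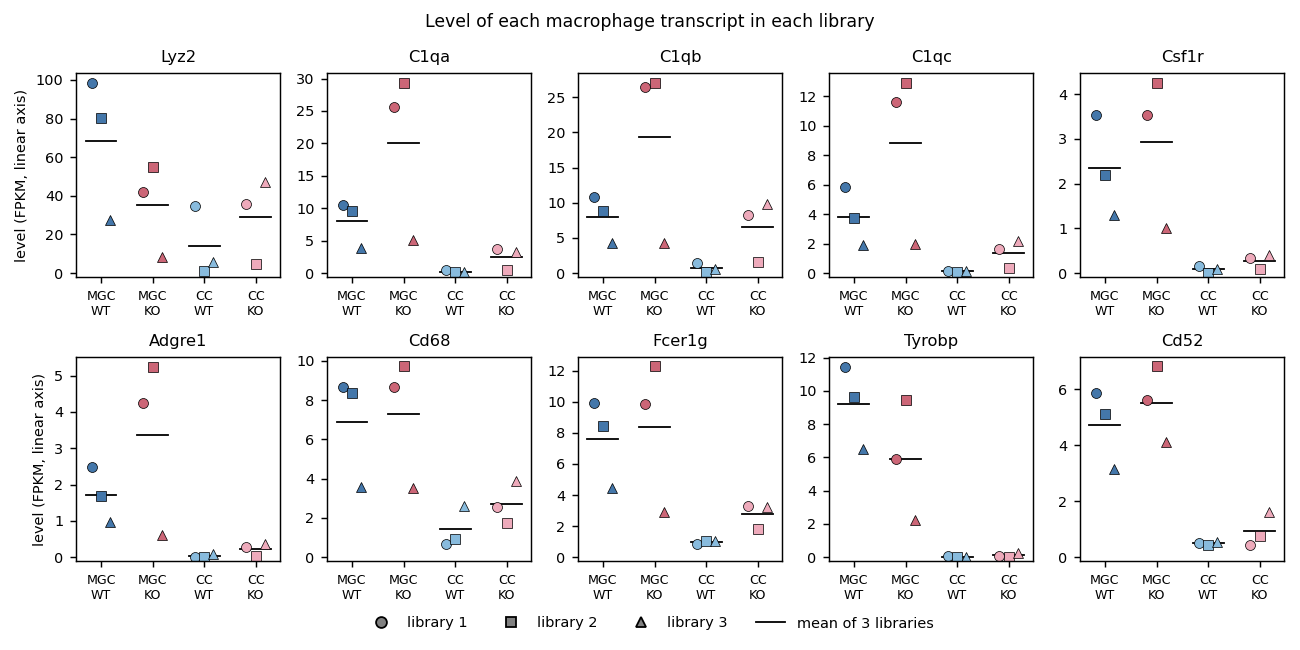
Level of each of the 10 genes in FPKM on linear axes, with 1 point per library (circle, square and triangle for libraries 1, 2 and 3) and a line at the mean of 3 libraries. In MGCs the triangles are low for nearly every gene in both genotypes, KO libraries 1 and 2 carry the highest C1qa, C1qb and C1qc, and WT libraries 1 and 2 the highest Lyz2, while all CC levels of Tyrobp lie at or under 0.235 FPKM.

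Ranked by mean level, WT MGCs ran from Lyz2 at 68.6 ± 37.0 FPKM (SD, n = 3) to Adgre1 at 1.71 ± 0.759 FPKM. After Lyz2, whose libraries did not overlap those of Tyrobp at 9.20 ± 2.51 FPKM, every pair of neighbours in the order overlapped. In KO MGCs the order began with Lyz2 at 35.3 ± 24.1 FPKM, C1qa at 20.1 ± 13 FPKM and C1qb at 19.3 ± 13 FPKM, with overlap between all neighbours. Tyrobp thus stood in place 2 in WT MGCs and in place 7 in KO MGCs, and C1qc in place 8 and in place 4. In CCs the lowest 3 places of either genotype were held by Csf1r, Adgre1 and Tyrobp.

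The genotype comparison in MGCs asks whether loss of Sphk1/2 changed these transcripts in the mural compartment. None of the 10 was called by limma (log2(FPKM + 1), adjusted p of at most 0.05 over all genes tested and at least a 2-fold change), none had an unadjusted p under 0.05, and voom on recovered reads also called none. The background was low: 1 of 15279 genes was higher (0.00654%) and 5 were lower (0.0327%), or 2 (0.0131%) and 1 (0.00654%) with the replicate number as a block. Mean levels of C1qa were 20.1 ± 13 FPKM in KO and 8.00 ± 3.60 FPKM in WT (SD, n = 3 each), a difference of 1.02 ± 0.65 on the log2 scale (SE, limma, adjusted p = 0.69). For Lyz2 the difference was -1.10 ± 0.75 (limma, adjusted p = 0.71) and for Tyrobp it was -0.69 ± 0.43 (limma, adjusted p = 0.68). The median difference of the 10 was 0.19 on the log2 scale, against -0.0034 over all genes tested. No member kept its genotypes apart in MGCs, against 16.9% of all genes tested.

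With libraries 3 of both genotypes left out, which leaves 2 against 2, C1qa, C1qb and C1qc were called higher in KO MGCs, by 1.36, 1.37 and 1.22 on the log2 scale (limma, adjusted p = 0.0051, 0.0063 and 0.025), against a background of 1.24% higher and 1.85% lower. Lyz2 at -0.87 and Adgre1 at 0.91 passed the adjusted p there (0.035 and 0.036, limma) but not the fold. With KO library 3 alone left out, none of the 10 was called (0.762% of all genes were higher and 0.355% lower). KO library 3 was lower than the mean of KO libraries 1 and 2 by 7.73-fold for Adgre1, 6.27-fold for C1qb, 2.61-fold for Cd68 and 1.52-fold for Cd52. Ptprc, which encodes the leukocyte antigen CD45, was at 1.37, 1.51 and 0.0544 FPKM in KO MGCs and 1.22, 0.817 and 0.580 FPKM in WT MGCs.

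Because the members varied together from library to library, with a median Pearson r of 0.87 between pairs of members over the 6 MGC libraries (log2 scale, 45 pairs, libraries shared by all pairs), each was also set against Csf1r of its own library, a description chosen after the values were seen. C1qa was 2.97, 4.41 and 2.99 times Csf1r in WT MGCs and 7.25, 6.90 and 5.12 times in KO MGCs. Lyz2 was 27.9, 36.7 and 21 times Csf1r in WT and 11.9, 12.9 and 8.43 times in KO, and Tyrobp 3.24, 4.42 and 5.00 times in WT and 1.67, 2.23 and 2.22 times in KO. The 3 C1q chains were thus higher and Lyz2 and Tyrobp lower in KO without overlap, including in library 3, while Adgre1, Cd68, Fcer1g and Cd52 overlapped. Of all genes, 0.635% were higher and 4.35% lower relative to Csf1r without overlap.

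The mean ratio to Csf1r was 1.86 times higher in KO for C1qa, 1.75 times for C1qb and 1.72 times for C1qc, and it was 2.57 times lower for Lyz2 and 2.07 times lower for Tyrobp. Set against Fcer1g (0.929% of all genes higher and 3.72% lower without overlap) or Laptm5 (0.511% and 5.05%), the same 5 genes parted the genotypes in the same directions. Against Cd68 (0.772% and 5.52%) C1qa, Lyz2 and Tyrobp did so. Against Ptprc (1.28% and 0.733%), with the very low value of KO library 3 as denominator, C1qa, C1qb, C1qc and Adgre1 were higher without overlap and Lyz2 and Tyrobp overlapped. The summed C1q level was 0.276, 0.277 and 0.368 times the Lyz2 level in WT MGCs and 1.51, 1.26 and 1.35 times in KO MGCs.

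**Figure D2:**
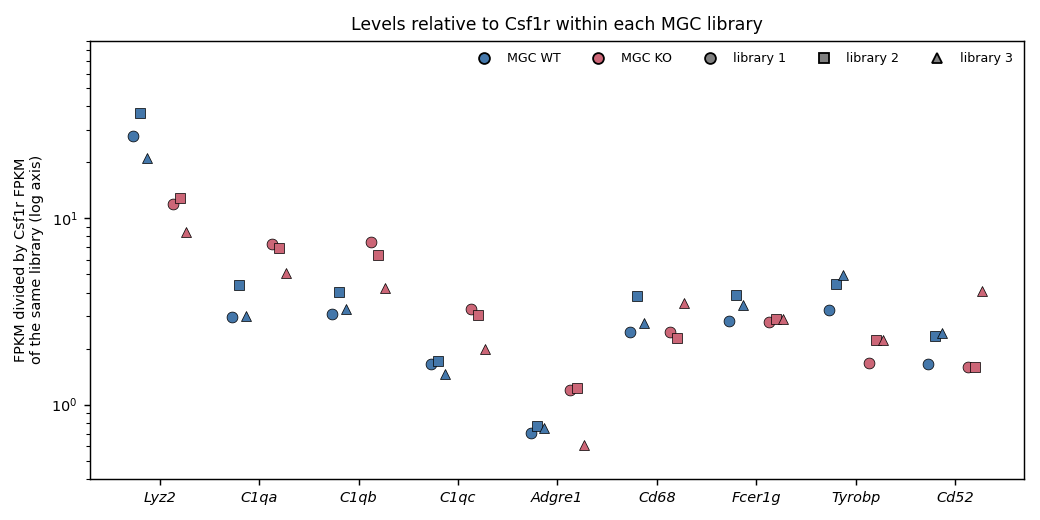
FPKM of 9 members divided by the Csf1r FPKM of the same MGC library, on a log axis, with WT in blue and KO in red and 1 point per library. C1qa, C1qb and C1qc sit higher and Lyz2 and Tyrobp lower in all 3 KO libraries, and the other 4 genes overlap.

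Lyz2, Tyrobp, Fcer1g and Cd52 are also made by neutrophils, whose most abundant transcripts include S100a8 and S100a9. In MGCs S100a8 was at 53.3, 44.7 and 36.5 FPKM in WT against 9.27, 10.9 and 2.15 FPKM in KO, and S100a9 was at 139, 112 and 90.9 FPKM in WT against 16.5, 20.2 and 4.56 FPKM in KO. Both were lower in all 3 KO libraries, although neither was called. The whole neutrophil list summed to 188 to 298 FPKM in WT MGCs against 13.2 to 49.4 FPKM in KO MGCs. Of its 17 tested genes, 0 were called by limma or voom. An unadjusted p under 0.05 (limma) was found for 15 of 17, against 1406 of 15279 genes tested. The median difference was -1.42 on the log2 scale against -0.0034 over all genes. Of the 17 genes, 7 had KO means under 0.5 FPKM and entered the test through WT alone, where they were high. A lower level in KO was thus favoured, and the 15 of 17 and the median are no support for one. Clec4d, a C-type lectin of myeloid cells that signals through FCER1G, was the only gene called among the partners of FCER1G and TYROBP in MGCs, at 2.20 to 2.67 FPKM in WT against 0.138 to 0.222 FPKM in KO (-1.54 ± 0.15 on the log2 scale, limma, adjusted p = 0.050). The part of neutrophil RNA in the lower Lyz2 and Tyrobp of KO MGCs was not tested.

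**Figure D3:**
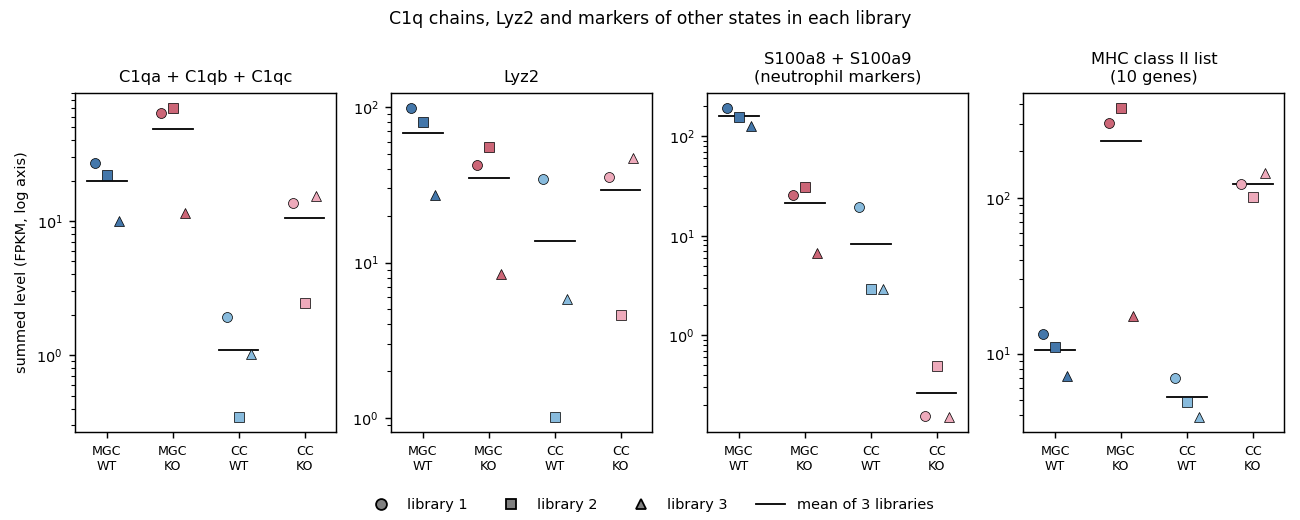
Summed FPKM of the 3 C1q chains, Lyz2, the neutrophil markers S100a8 and S100a9, and the 10 genes of the MHC class II list, on log axes with 1 point per library and a line at the mean of 3. S100a8 and S100a9 are lower in every KO library of their cell type, and MHC class II is high in KO MGC libraries 1 and 2 and in all 3 KO CC libraries.

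In CCs the same genotype comparison could test 7 of the 10 genes, since Csf1r, Adgre1 and Tyrobp were under 0.5 FPKM in both groups. C1qa and C1qb were called higher in KO, 2 of 7 against a background of 4.19% higher (511 of 12205 genes) and 3.85% lower. C1qa, C1qc and Cd52 had WT means under 0.5 FPKM and entered the test through KO alone, where they were high, so a difference in that direction was favoured and the 2 of 7 is no support for one. C1qa rose from 0.248 ± 0.158 to 2.51 ± 1.76 FPKM (SD, n = 3 each), a difference of 1.33 ± 0.40 on the log2 scale (SE, limma, adjusted p = 0.047). C1qb rose from 0.717 ± 0.613 to 6.58 ± 4.40 FPKM, a difference of 1.96 ± 0.52 (limma, adjusted p = 0.031). The log2(FPKM + 1) scale understates such low genes: the ratio of means was 10.1 for C1qa, 9.18 for C1qb and 10.7 for C1qc.

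C1qc at 0.99 ± 0.29 (limma, adjusted p = 0.040) and Fcer1g at 0.91 ± 0.19 (limma, adjusted p = 0.013) passed the adjusted p but not the 2-fold rule. Without the fold rule 9.66% of all genes were higher. Lyz2 at 1.44 ± 1.09, Cd68 at 0.67 ± 0.32 and Cd52 at 0.34 ± 0.22 did not pass (limma, adjusted p = 0.36, 0.16 and 0.28). The genotypes did not overlap for C1qa, C1qb, C1qc and Fcer1g, with KO higher, as was so for 18.2% of all genes tested. The calls moved with single libraries: none of the 7 was called without KO library 1, KO library 3, WT library 1 or WT library 2, Cd68 alone was called without WT library 3 (4.66% of all genes higher), and C1qa, C1qb, C1qc and Fcer1g were called without KO library 2 (3.77% of all genes higher), the KO library with the lowest C1q. The same 4 genes were called by voom on recovered reads (7.7% of all genes higher) and with a pseudocount of 0.1 FPKM (6.76%), and none of them with libraries 3 of both genotypes left out (3.04%) or with no filter on low genes.

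**Figure D4:**
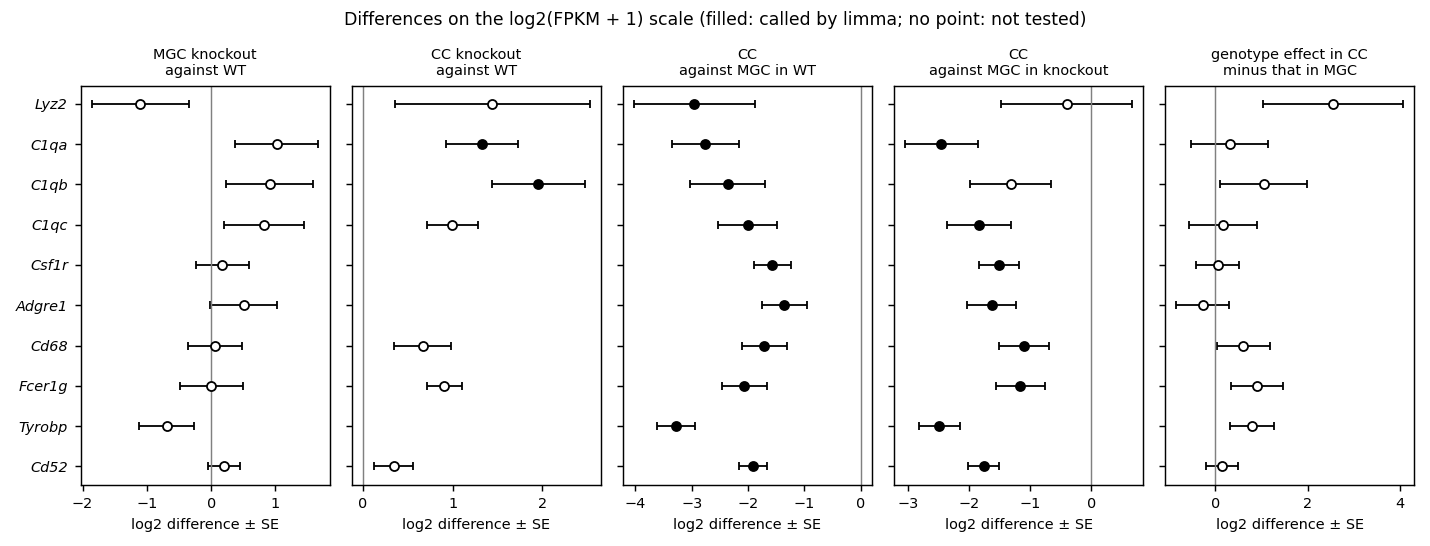
Difference of each member on the log2(FPKM + 1) scale with its SE (limma) in the 5 comparisons, with filled points for called members and no point where a gene was under the filter. No member is called between genotypes in MGCs or for the difference between the 2 genotype effects, C1qa and C1qb are called in CCs, and the 2 comparisons of CCs with MGCs have 10 and 8 filled points.

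Several leukocyte genes were too low in CCs for a test. Ptprc was at no more than 0.0377 FPKM in any CC library and Laptm5, a lysosomal protein of leukocytes, at no more than 0.0301 FPKM. Neither was tested, and a fall from such levels could not be seen. In KO CCs neither exceeded these levels, while C1qa reached 3.73 FPKM there. Cd53, a leukocyte tetraspanin, was at 0.784, 0 and 0 FPKM in WT CCs and 0.823, 0.842 and 2.60 FPKM in KO CCs, and was not called (limma, adjusted p = 0.073). The pan-leukocyte list of 21 genes summed to 2.55 to 4.35 FPKM in WT CCs and 6.57 to 12.3 FPKM in KO CCs, with its 4 tested genes all higher in KO by mean and 1 called, and its part in the C1q values was not tested. Cd68 and Fcer1g were the best detected members beside Lyz2 and C1qb in KO CCs, at 2.72 ± 1.10 and 2.77 ± 0.84 FPKM. Lyz2 followed C1q within KO CCs, high in libraries 1 and 3 and low in library 2, and it was as high in WT library 1, which held 1.92 FPKM of summed C1q and 7.61 and 11.7 FPKM of S100a8 and S100a9. KO libraries 1 and 3 held no more than 0.153 FPKM of S100a8 and none of S100a9. The summed C1q level was 0.0552, 0.342 and 0.175 times the Lyz2 level in WT CCs and 0.383, 0.532 and 0.324 times in KO CCs.

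The C1q transcripts did not stand in the same proportions in the 2 cell types. C1qb was 0.916 to 1.10 times C1qa in WT MGCs and 0.828 to 1.03 times in KO MGCs, and in CCs it was 1.43 to 3.28 times C1qa in WT and 2.23 to 3.25 times in KO. C1qb thus took 37.3% to 42.4% of the summed C1q FPKM in every MGC library and 60.8% to 64.9% in the KO CC libraries, where 58 to 353 reads stood behind the share. WT CCs had only 8 to 35 such reads a library, and their shares of 44.2% to 71.5% carry that counting error.

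**Figure D5:**
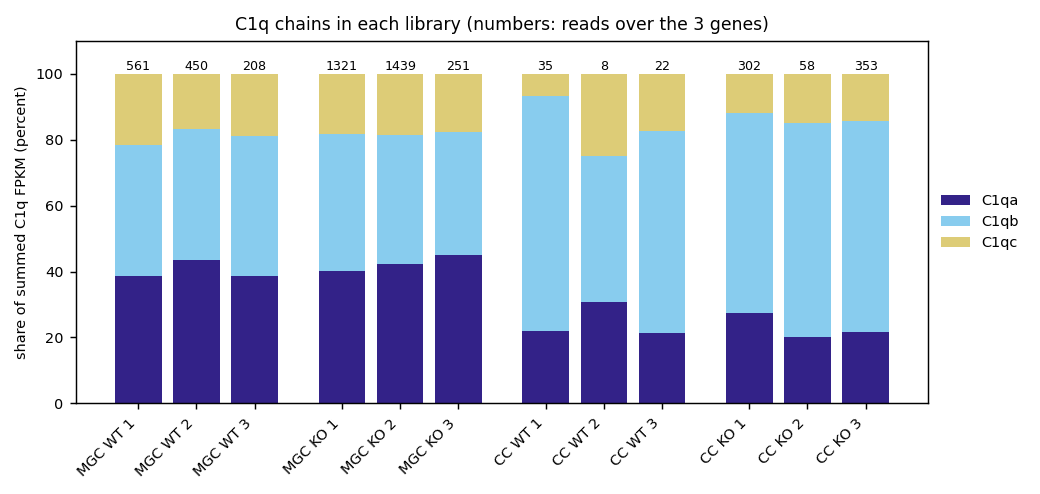
Share of C1qa, C1qb and C1qc in their summed FPKM in each library, as stacked bars in percent, with the number of reads over the 3 genes above each bar. C1qa and C1qb have like shares in the 6 MGC libraries, and C1qb has the largest share in all 6 CC libraries.

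Whether the genotype effect in CCs differed from that in MGCs was tested over all 12 libraries. None of the 10 was called (limma, adjusted p of 0.36 to 0.96), none had an unadjusted p under 0.05 and voom also called none, while 2.45% of all 15869 genes were higher and 1.48% lower. The largest difference was that of Lyz2 at 2.55 ± 1.51 on the log2 scale (limma, adjusted p = 0.36). For C1qa it was 0.31 ± 0.84 and for C1qb 1.04 ± 0.95 (limma, adjusted p = 0.87 and 0.56).

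Compared with MGCs, CCs had a lower mean level of every member in both genotypes. In WT all 10 were called lower, but C1qa, C1qc, Csf1r, Adgre1, Tyrobp and Cd52 had WT CC means under 0.5 FPKM and did not enter through that group. The count stands against 33.3% of all genes lower and 15.4% higher, and the median difference was -2.04 on the log2 scale for the 10 and -0.54 for all genes, or -0.10 after quantile normalization. Tyrobp fell most, with a difference of -3.28 ± 0.34 (limma, adjusted p = 2.8e-06): 1 read in the 3 CC libraries stood against 307 in the 3 MGC libraries, a ratio of 316 per library size with a 95% exact (Clopper-Pearson) interval of 56.3 to 12530 for counting error only. Adgre1 was 57.1 times lower on the same count (24.2 to 177), C1qa 33.0 times (19.1 to 62.4) and Csf1r 28.0 times (18.1 to 45.6). Fcer1g was 7.80 times lower (5.68 to 10.9), Lyz2 5.19 times (4.83 to 5.59) and Cd68 4.78 times (3.82 to 6.05). These intervals do not cover the spread between libraries. The ratio of mean FPKM for Lyz2 was 4.95, ran from 3.38 to 20.0 when single libraries were left out, with 20.0 reached without WT CC library 1 and 3.38 without WT CC library 2, and its call was lost without replicate 2 or replicate 3 of every group (limma, adjusted p = 0.13 and 0.052). The same range was 18.1 to 50.2 for Csf1r, 25.1 to 49.1 for C1qa, 6.66 to 9.46 for Fcer1g and 3.86 to 8.48 for Cd68. For Adgre1 it was 38.9 to 71.1 where a ratio could be formed. Without WT CC library 3, which held all 5 WT CC reads of Adgre1, the CC mean was 0 and the range has no upper end. Lyz2 was the member whose WT groups overlapped, through WT CC library 1 (55.7% of all genes were lower without overlap), and 7 of 10 were called after quantile normalization, where 21.3% of all genes were lower.

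In KO libraries 8 of the 10 were called lower in CCs, against 31.4% of all genes lower and 13.7% higher. Lyz2 at -0.41 ± 1.07 and C1qb at -1.32 ± 0.67 were not called (limma, adjusted p = 0.74 and 0.092), and C1qb was called with the replicate number as a block (limma, adjusted p = 0.0094, 31.5% of all genes lower) and without MGC KO library 3 (limma, adjusted p = 0.0057, 30.2%). Tyrobp was at 4 reads in CCs against 201 in MGCs, 55.9 times lower (21.5 to 207, exact interval for counting error only). C1qa was 7.95 times lower (6.70 to 9.51) and C1qb 2.91 times (2.59 to 3.27). With single libraries left out, the ratio of mean FPKM ran from 5.70 without CC KO library 2 to 11.0 without MGC KO library 3 for C1qa, and from 2.12 to 4.07 without the same libraries for C1qb. Without 1 replicate of every group the difference on the log2 scale ran from -3.42 to -1.51 for C1qa and from -2.50 to -0.26 for C1qb. After quantile normalization 4 of 10 were called, against 19.4% of all genes, and without replicate 1 or replicate 2 of every group 4 and 3 were called, where 32.2% and 30.8% of all genes were lower. Csf1r, Adgre1 and Tyrobp entered this comparison with CC means under 0.5 FPKM.

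The lists that follow hold 207 tested genes in MGCs, of which limma called 1 between genotypes, 60 had an unadjusted p under 0.05 and voom on recovered reads called 0. In CCs 83 were tested, of which limma called 26, 49 had an unadjusted p under 0.05 and voom called 36. Over all genes in MGCs, limma called 6 of 15279, 1406 had an unadjusted p under 0.05 and voom called 0 of 15258. Over all genes in CCs, limma called 981 of 12205, 4664 had an unadjusted p under 0.05 and voom called 1955 of 12195. The list counts below stand against these.

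The pathway around CSF1R was represented by 10 listed genes, of which 9 could be tested in MGCs and 3 in CCs, and none was called between genotypes in either (2 and 0 at an unadjusted p under 0.05, 0 by voom in both). Csf1, the ligand, was at 1.81, 1.91 and 5.67 FPKM in WT MGCs against 6.36, 6.55 and 2.02 FPKM in KO MGCs, with overlap, and under 0.5 FPKM in all CCs. Il34, the other ligand, was at 0.575 to 1.16 FPKM in WT MGCs against 0.181 to 0.339 FPKM in KO MGCs, lower in all 3 KO libraries. Of the 9 tested, 7 were lower in CCs than MGCs in WT and 6 in KO, against 33.3% and 31.4% of all genes, and 5 in each had a CC mean under 0.5 FPKM. They were led by Csf2ra, a receptor chain for GM-CSF that was at 22.1 to 34.0 FPKM in MGCs and no more than 0.277 FPKM in CCs.

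Among 30 other tissue macrophage genes, 0 of 21 tested were called in MGCs (4 at an unadjusted p under 0.05, 0 by voom) and 2 of 7 in CCs, both higher in KO. Both had WT CC means under 0.5 FPKM and entered the test through KO alone. Ctss, the lysosomal protease cathepsin S, was at 0.686, 0.0410 and 0.335 FPKM in WT CCs against 2.81, 0.745 and 3.92 FPKM in KO CCs (1.27 ± 0.36 on the log2 scale, limma, adjusted p = 0.040). Its MGC levels were 10.0, 9.13 and 3.01 FPKM in WT against 24.0, 29.0 and 4.81 FPKM in KO, the pattern of the C1q chains. Cd14, a co-receptor for bacterial lipopolysaccharide, was at 0.181 to 0.637 FPKM in WT CCs against 2.20 to 5.07 FPKM in KO CCs (1.59 ± 0.25, limma, adjusted p = 0.0047). Mpeg1, a pore-forming protein of macrophages, was at 2.61 to 6.01 FPKM in WT MGCs, 1.94 to 13.8 FPKM in KO MGCs and no more than 0.433 FPKM in CCs.

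Of the 23 Fc receptors and partners of FCER1G and TYROBP, 18 were tested in MGCs, with Clec4d alone called, and 6 in CCs, with 2 called higher. Clec4d entered the test through WT MGCs alone and the other 2 through KO CCs alone, with means under 0.5 FPKM in the other genotype. Fcgr4, an activating IgG receptor that pairs with FCER1G, was at 1.11, 1.04 and 0.708 FPKM in WT MGCs against 9.30, 8.79 and 0.308 FPKM in KO MGCs. In CCs it was at 0.0886 to 0.408 FPKM in WT against 0.725 to 3.04 FPKM in KO (1.2 ± 0.29, limma, adjusted p = 0.022). Fcgr2b, the inhibitory IgG receptor, was at 0.202 to 0.311 FPKM in WT CCs against 1.34 to 1.94 FPKM in KO CCs (1.08 ± 0.14, limma, adjusted p = 0.0026). Trem2, a receptor that signals through TYROBP, did not exceed 0.454 FPKM in any library.

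Of 20 complement partners and receptors, 0 of 15 tested were called between genotypes in MGCs (3 at an unadjusted p under 0.05, 0 by voom) and 1 of 5 in CCs, Serping1, which was higher in KO. Serping1, the C1 inhibitor that blocks the proteases bound to C1q, was at 3.18, 1.08 and 1.44 FPKM in WT CCs against 15.3, 16.9 and 16.1 FPKM in KO CCs (2.62 ± 0.25, limma, adjusted p = 0.00085). In MGCs it was at 11.4 to 12.6 FPKM in WT against 54.5, 54.8 and 8.78 FPKM in KO, high in KO libraries 1 and 2 as the C1q chains were. The proteases C1ra and C1s1, which C1q carries, were at 3.73 to 9.31 FPKM in MGCs and no more than 1.40 FPKM in CCs.

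Of 18 chemokines and cytokines that act on macrophages, 0 of 17 tested were called in MGCs and 3 of 11 in CCs, all higher in KO. Spp1, which encodes osteopontin, rose from 42.6 to 61.7 FPKM in WT CCs to 231 to 436 FPKM in KO CCs (2.64 ± 0.25, limma, adjusted p = 0.00085). Cx3cl1, the ligand of CX3CR1, was at 1.03 to 2.42 FPKM in WT CCs against 5.43 to 14.6 FPKM in KO CCs (2.06 ± 0.33, limma, adjusted p = 0.0053). Il1rn, the antagonist of the interleukin-1 receptor, was at 0.0785 to 0.144 FPKM and 1.68 to 2.30 FPKM (1.43 ± 0.14, limma, adjusted p = 0.00086). It was 1 of 4 tested genes of this list with a CC mean under 0.5 FPKM in 1 genotype. Il1rn entered the test through KO alone, where it was high, so a rise was favoured. The receptor Cx3cr1 did not exceed 0.0943 FPKM in CCs.

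Markers of other cell types were read in the same libraries. The MHC class II list had 0 of 6 tested genes called in MGCs by limma or voom (all 6 at an unadjusted p under 0.05) and 6 of 6 higher in KO CCs, of which 4 had WT means under 0.5 FPKM, led by H2-Eb1 at 0.529 to 1.21 FPKM in WT against 34.4 to 43.6 FPKM in KO (4.44 ± 0.18, limma, adjusted p = 4.4e-05). Summed over the list it was 7.19 to 13.4 FPKM in WT MGCs against 303, 378 and 17.5 FPKM in KO MGCs, and 3.91 to 6.96 FPKM in WT CCs against 101 to 145 FPKM in KO CCs. The C1q chains and MHC class II were thus both high in KO MGC libraries 1 and 2 and low in KO library 3, and the part of class II cells in the C1q values was not tested. Of 21 pan-leukocyte genes, 0 of 21 tested were called in MGCs and 1 of 4 in CCs, Cyba, a subunit of the NADPH oxidase that is not limited to leukocytes (1.01 ± 0.22 higher in KO, limma, adjusted p = 0.014).

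The neutrophil list had 1 of 4 genes called in CCs, S100a9, lower in KO (-2.20 ± 0.50, limma, adjusted p = 0.018), at 1.75 to 11.7 FPKM in WT and no more than 0.194 FPKM in KO. Of these 4 genes, 3 had KO means under 0.5 FPKM, with S100a9 among them. They entered the test through WT alone, which favoured a lower level in KO. No monocyte gene was called between genotypes by limma or voom (0 of 13 in MGCs and 0 of 3 in CCs, with 4 and 2 at an unadjusted p under 0.05). The dendritic cell list had 0 of 8 and 1 of 3, Ly6d, and the T cell list 0 of 8 and 1 of 2, Trbc2, both higher in KO CCs. Cd3e, the defining T cell gene, did not exceed 0.0279 FPKM in CCs and was at 0.289, 0.405 and 0.0136 FPKM in KO MGCs and no more than 0.0297 FPKM in WT MGCs. None of 2 B cell and 4 NK cell genes was called in MGCs and none reached the filter in CCs, Ms4a1 being at no more than 0.162 FPKM throughout and Cd79a at no more than 0.541 FPKM, and the 1 mast cell and eosinophil gene tested was not called in either. The NK list summed to 3.41 to 6.34 FPKM in WT MGCs and 28.4, 31.7 and 1.17 FPKM in KO MGCs, with the granzymes Gzmb at 14.7, 16.4 and 0.270 FPKM and Gzma at 8.39, 9.68 and 0.165 FPKM in KO. They were high in KO libraries 1 and 2 and low in library 3, as the C1q chains were, and the part of NK or other cytotoxic cells was not tested.

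Erythroid genes were called for 0 of 5 in MGCs and 1 of 4 in CCs, Alas2, lower in KO. All 4 had KO CC means under 0.5 FPKM and entered the test through WT alone, which favoured a lower level in KO. The erythroid list, mostly haemoglobin, summed to 367, 404 and 262 FPKM in WT MGCs and to 292, 230 and 30.7 FPKM in KO MGCs. It summed to 4.37 to 27.0 FPKM in WT CCs and to 0.30 to 1.78 FPKM in KO CCs. Hba-a1, an alpha globin whose reads may be shared with its near-identical copy Hba-a2, was at 12.9, 0.274 and 8.98 FPKM in WT CCs, high in library 1 and low in library 2 as Lyz2 was. Its difference between CCs and MGCs in WT was -4.52 ± 0.87 on the log2 scale (limma, adjusted p = 0.00050), and that of the beta globin Hbb-bs was -5.40 ± 0.84 (limma, adjusted p = 9.6e-05). Haemoglobin was thus lower in CCs and low in MGC KO library 3, as the members were, and the part of blood in their values was not tested. Endothelial genes were called for 0 of 10 in MGCs and 0 of 1 in CCs. Pecam1, the endothelial adhesion molecule CD31, was at 1.89 to 2.59 FPKM in WT MGCs, 0.773 to 1.31 FPKM in KO MGCs and no more than 0.146 FPKM in CCs. Theca and stroma genes were called for 0 of 14 and 2 of 7, Cyp17a1 and Lum, both lower in KO CCs. Lum had a KO CC mean under 0.5 FPKM and entered the test through WT alone. Cyp17a1, the androgen-producing enzyme of theca, was at 72.9 to 170 FPKM in WT MGCs against 9.45 to 26.2 FPKM in WT CCs. Oocyte genes had 0 of 10 and 0 of 4 called (0 and 3 at an unadjusted p under 0.05, 2 of 4 in CCs by voom), with Zp3 at 5.31 to 31.1 FPKM in MGCs and 0.344 to 1.92 FPKM in CCs. Granulosa genes had 0 of 12 called in MGCs and 5 of 12 lower in KO CCs, with Fshr, the FSH receptor that defines the lineage, at 54.7 to 73.4 FPKM in MGCs and 50 to 118 FPKM in CCs.

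Genes whose library pattern was most like the mean of the 10 members were named by correlation, as a description over libraries that all genes share. In the 6 MGC libraries the highest among 12463 genes were Lyn, Msln, Laptm5, Fndc3a, Mob3c, Lrrc25, Pld4, Slc25a51, Maml2 and Cflar, with Pearson r from 0.994 for Lyn, a Src-family kinase of myeloid and B cells, over 0.989 for Laptm5 to 0.985 for Cflar. When the lower r of the 2 cell types was ranked over 8808 genes, the first 10 were Hif1a, Rab14, Ctss, Tmbim1, Sowahc, Gm49342, Nabp1, Zfr, Slc23a2 and Nedd9, with 0.975 for Hif1a and 0.913 for Ctss. Ctss was the only gene of this second group that was also on a macrophage list. All points share library and depth, and no p is given.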

How the data were processed

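RNA-seq libraries of MGCs and CCs (3 per genotype) were analysed from FPKM values that the authors deposited in 1 table per cell type. Per the labels reads were mapped with HISAT2 to GRCm38, the kit was NEBNext Ultra, and the counting tool is not given in the sources used here. Identifiers were named with GENCODE M21. The members and all lists were chosen with earlier results of these data known.

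Differences were tested with limma 3.58.1 (R 4.3.3, trend) on log2(FPKM + 1), over genes with a group mean of at least 0.5 FPKM, with Benjamini-Hochberg adjustment over all genes tested. The genotype comparisons used the 6 libraries of a cell type, and the others all 12 libraries. A call needed an adjusted p of at most 0.05 and at least a 2-fold change (no fold for the difference of effects). Fold changes on this scale are understated for low genes. The 2 tables were deposited separately, so levels set across cell types rest on the authors' scaling to FPKM, whose sums were 283239 to 322730 in MGC and 361095 to 396262 in CC libraries. The test was checked on simulated data with less spread between libraries than most members showed, and with changes in well expressed genes only. That check does not cover members at low levels or with a wide spread.

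Reads were recovered from FPKM and exon length. Under 1000 reads, 91.8% to 93.0% of values came out within 0.02 of a whole number, and the members' counts within 0.0141 (for Csf1r and Adgre1 after fitting the length). Exact intervals and the limit of 3 reads cover counting error only. The labels do not say whether libraries of the same number are paired. Deviations of same-numbered libraries had r = 0.22, 0.16 and 0.22 in MGCs and r = -0.15, -0.051 and 0.12 in CCs. Differently numbered libraries were not correlated, so these values cannot establish a pairing. The main fits had no block, and the replicate number as a block was an alternative.

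Named genes were the 10 members, at most 4 called genes per list and comparison by size of difference, and defining markers by level. Other genes named (Ctss and Serping1 in MGCs, Mpeg1, Trem2, Cx3cr1, C1ra, C1s1, Laptm5) were chosen after their values were seen. From the complement list, 1 gene is not reported here and was left out of the counts.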

Additional observations from a re-analysis of the deposited data

Results flagged for a closer look

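The genotype effect differed between CCs and MGCs for several list genes, and 6 are given here. Values are CC effect minus MGC effect on the log2 scale (limma over all 12 libraries). Over all genes tested, 2.45% were higher and 1.48% lower. Other list genes were called too, most of them neutrophil genes, with 8 of 16 tested called higher, led by Retnlg at 2.46 (adjusted p = 0.016). Among the 6, the effect was higher in CCs for Spp1 at 3.64 (adjusted p = 0.037), Cd14 at 2.51 (0.031), Il1rn at 1.94 (0.0042) and Clec4d at 1.22 (0.015). It was lower for Cyp19a1 at -3.05 (0.017) and Nr5a2 at -1.53 (0.013). A positive value need not be a rise in KO CCs. Clec4d was at 0.107 to 0.660 FPKM in WT CCs against no more than 0.133 FPKM in KO CCs. Its MGC levels were 2.20 to 2.67 FPKM in WT and 0.138 to 0.222 FPKM in KO. Retnlg was at 0 FPKM in every KO CC library. No gene of the whole table passed this test without replicate 1 or without replicate 2 of every group, where 2942 and 1523 genes had an unadjusted p under 0.05. None of the 10 macrophage transcripts met it.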

How the results depend on the processing

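Counts of called members moved with the setting. In CCs the genotype comparison called 2 and alternatives gave 0 to 4. The count was 4 without the fold rule, with a pseudocount of 0.1 FPKM and with voom on recovered reads. It was 0 without a filter on low genes and with libraries 1 and 2 alone, and 0 to 4 when single libraries were left out. In MGCs libraries 1 and 2 alone gave 3 called members against 0, and leaving out single libraries gave 0 throughout. Leaving out single libraries or replicates gave 7 to 10 for CCs against MGCs in WT and 3 to 9 in KO, where quantile normalization gave 4. Relative to Cd68 in place of Csf1r, 3 members parted the genotypes in MGCs. The difference of the genotype effects gave 0 in every alternative. The cause of these shifts was not tested.

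Members near 0 changed sign. Between genotypes in MGCs the ranges over left-out libraries were -0.091 to 0.60 for Csf1r, -0.29 to 0.45 for Cd68, -0.34 to 0.54 for Fcer1g (0.24 with libraries 1 and 2 alone) and -0.016 to 0.36 for Cd52. For CCs against MGCs in KO the range was -1.78 to 1.06 for Lyz2. For the difference of effects it was -0.43 to 1.00 for C1qa, -0.55 to 0.86 for C1qc, -0.37 to 0.38 for Csf1r, -0.88 to 0.18 for Adgre1 (0.61 with a pseudocount of 0.1 FPKM and 2.42 with voom) and -0.029 to 0.23 for Cd52. Rescaling every library to the same FPKM sum raised all levels and multiplied CC to MGC ratios by 0.782 to 0.848 and genotype ratios by 0.984 to 1.06, with 0 changes of direction.

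With the replicate number as a block, 0 members were called between genotypes in MGCs, 2 in CCs, 10 and 9 for CCs against MGCs in WT and KO and 0 for the difference of effects, and only C1qb in the KO comparison changed its call. Whether the numbers pair the libraries is not stated for either cell type.

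Over all genes, MGCs had 6 calls between genotypes, against 477 with libraries 1 and 2 alone, 170 without KO library 3, 3 with the block, 1 with quantile normalization or without the filter, 0 with voom (1390 genes at an unadjusted p under 0.05) and 0 to 2 without any other library. CCs had 981, against 1955 with voom, 1674 with a pseudocount of 0.1 FPKM and 2725 without the fold rule. The difference of effects had 624, against 1022 without MGC KO library 3, 1579 without replicate 3, 327 without the filter and 0 without replicate 1 or 2. Without the fold rule CCs against MGCs had 12156 calls in WT, against 7733, and 11643 in KO, against 7160. Quantile normalization turned 2445 higher and 5288 lower genes of CCs against MGCs in WT into 3573 and 3377, and 2173 and 4987 in KO into 3219 and 3073. Few reads on the members limit CCs most, where 1 to 6 of the 10 per library had 3 reads or fewer. Total reads were 16100365 to 17976666 in WT CCs and 18835376 to 19761604 in KO CCs. In MGCs they were 16492894 to 16861699 in WT and 16936739 to 18074718 in KO.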
